A study of Mus musculus with 2 samples.

Results

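MicroRNA sequencing of embryonic mouse heart was used to describe 9 microRNA (miRNA) genes of 2 clusters: Mir106b, Mir93 and Mir25 of the miR-106b-25 cluster, and Mir106a, Mir18b, Mir20b, Mir19b-2, Mir92-2 and Mir363 of the miR-106a-363 cluster. The members were taken by name, through the Ensembl gene IDs of the count tables, and not by their measured values. All 9 were among the 1973 miRNA genes counted. The hearts came from B6NCrl mouse embryos at embryonic day 11.5, male and female together, and the labels call them healthy. They form a single group of 2 libraries, named as biological replicates 1 and 2 from separate tissue samples. Replicate 1 pooled the hearts of 109 embryos, and the labels read here state no number for replicate 2. The size range of the RNA is labelled as below 30 nt. With no second condition, the comparisons are between genes and clusters within a library, and between the 2 libraries.

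Both clusters are paralogs of miR-17-92, a polycistron that is transcribed as a single primary RNA and cut into several hairpins. Each hairpin gives a mature miRNA whose seed, the bases from position 2 to position 8, pairs with target messages and directs their repression. Members with the same seed share many targets, so the 3 clusters are usually sorted by seed. In human cancer cells the miR-17 seed relatives miR-106b and miR-93 repress CDKN1A, an inhibitor of cyclin-dependent kinases, and miR-25 represses BCL2L11, which promotes cell death. In mouse heart muscle miR-25 represses Atp2a2, the calcium pump of the sarcoplasmic reticulum. Mice that lack either paralog cluster alone develop without obvious defects. Mice that lack miR-17-92 die around birth with lung and heart septal defects, and loss of miR-106b-25 together with miR-17-92 is lethal at mid-gestation.

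The better-known mature arm of each member is shown because its seed defines the groups used for the results. The sequences come from RefSeq on GRCm38.p6 and run 5′ to 3′, with the seed in capitals. The first 4 carry the miR-17 seed, the next carries the miR-18 seed, the next carries the miR-19 seed and the last 3 carry the miR-25 seed.
miR-106b-5p: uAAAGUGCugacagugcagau
miR-93-5p: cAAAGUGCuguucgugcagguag
miR-106a-5p: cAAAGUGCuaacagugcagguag
miR-20b-5p: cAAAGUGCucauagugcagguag
miR-18b-5p: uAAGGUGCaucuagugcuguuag
miR-19b-3p: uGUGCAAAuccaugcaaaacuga
miR-25-3p: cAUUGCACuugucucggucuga
miR-92a-3p: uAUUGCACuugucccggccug
miR-363-3p: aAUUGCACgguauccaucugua

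The miR-17-92 arms that they are set against are shown for the same reason, again with the seed in capitals.
miR-17-5p: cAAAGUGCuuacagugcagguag
miR-20a-5p: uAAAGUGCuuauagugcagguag
miR-18a-5p: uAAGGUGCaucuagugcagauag

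Counting positions from the 5′ end of miR-17-5p, miR-106a-5p differed from it by U10A alone and miR-20b-5p by U10C and C12U. Of the other arms with that seed, miR-106b-5p differed by C1U, U10G and G20A over 21 bases and miR-93-5p by U10G, A11U, C12U and A13C. Against miR-18a-5p, miR-18b-5p differed by A18U and A20U. Against miR-92a-3p, miR-25-3p differed by U1C, C14U and C18U, whereas miR-363-3p differed at 11 of 21 positions. All of these differences lie outside the seed. The counts are per gene and pool both arms of a hairpin, so a gene is placed in a seed group by the arm shown.

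The 3 hairpins of miR-106b-25 lie within 498 bases on the minus strand of chromosome 5, from 138165321 to 138165818 on GRCm38 (also called mm10). All lie inside Mcm7, which encodes a subunit of the replicative helicase and spans 138164583 to 138172422 on the same strand. In transcript order, Mir106b (ENSMUSG00000065514.1, 138165737 to 138165818) overlaps no exon of any annotated Mcm7 transcript. Mir93 (ENSMUSG00000065527.1, 138165523 to 138165610) and Mir25 (ENSMUSG00000065394.1, 138165321 to 138165404) each lie in an exon of 1 annotated Mcm7 transcript.

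The 6 hairpins of miR-106a-363 lie within 875 bases on the minus strand of chromosome X, from 52741693 to 52742567. Mir106a (ENSMUSG00000065456.1) comes first in transcript order, at 52742503 to 52742567, and overlaps by at most 5 bases exons of Kis2, an annotated processed transcript at 52742563 to 52744960. It is followed by Mir18b (ENSMUSG00000077111.2, 52742331 to 52742413) and Mir20b (ENSMUSG00000076041.1, 52742113 to 52742192). Then come Mir19b-2 (ENSMUSG00000065473.1, 52741983 to 52742066), Mir92-2 (ENSMUSG00000065613.1, 52741838 to 52741928) and Mir363 (ENSMUSG00000070106.1, 52741693 to 52741767). These 5 lie outside annotated same-strand genes. The miR-17-92 cluster, with 6 hairpins over 836 bases, lies on chromosome 14 in an exon of its host Mir17hg.

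Own-strand counts came to 18467499 for replicate 1 and to 2017294 for replicate 2, a total 9.15-fold smaller. Levels are given as counts scaled to 1000000 in all (CPM), with no length scaling, because each read stands for a short RNA of nearly the same length. A count of 0 would allow up to 0.162 CPM in replicate 1 and up to 1.49 CPM in replicate 2. Reads that map to several places stand on no gene, and they made up 33.8% (replicate 1) and 33.2% (replicate 2) of mapped reads. The heart label was checked against its cardiac muscle miRNAs Mir208a, Mir208b and Mir499. These were all detected, and summed to 58391 CPM in replicate 1 and 63138 CPM in replicate 2. Of the 5 neuronal markers listed, 2 were among the counted genes and neither was detected, and the others were not analysed here. The 2 counted summed to 1.30 CPM in replicate 1 and to 0 CPM in replicate 2, where 0 allows up to 1.49 CPM. The marker lists of endothelium, smooth muscle, red blood cells, leukocytes, liver, epithelium and pluripotent cells had all their genes detected, with Mir126a of endothelium at 82102 CPM. The smooth muscle list summed to 93726 CPM in replicate 1 and 98626 CPM in replicate 2, above the cardiac muscle list.

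All 9 members were detected, which here means 1 CPM or more in both libraries, against 419 of the 1973 genes (21.2%). A mean of at least 100 CPM was reached by 6 of the 9, against 10.1% of all genes, and at least 1000 CPM by 2 of the 9, against 4.36% of all genes. Their median was 176 CPM with a range from 4.57 to 6205 CPM, against a median of 80.5 CPM over all detected genes, whose quartiles were 7.33 and 542 CPM. Whole tissue was sequenced, so fewer cells of a type and less of an RNA per cell cannot be told apart.

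The miR-106b-25 cluster was led by its miR-17 seed members, which stood at nearly equal levels. Mir93 had 6229 CPM in replicate 1 against 6182 CPM in replicate 2, a mean of 6205 ± 33.6 CPM (SD, n = 2), rank 29 of all genes. Mir106b had 5632 and 5811 CPM in the same order, a mean of 5722 ± 126 CPM, rank 31. Mir93 was above Mir106b in both libraries by a log2 ratio of 0.12 ± 0.04, or 1.08-fold. That small difference was larger than the spread, in the sense used for all ratios here. The direction was the same in both libraries, equality lay outside each exact binomial 95% interval, and the SD was smaller than the mean. Sign flips of 2 libraries give an exact two-sided p of 0.5 at the least, so ratios are given without a p.

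Mir25, the miR-25 seed member of the cluster, was far lower than its neighbours on the same transcript. It had 7017 counts in replicate 1 and 694 in replicate 2, which are 380 and 344 CPM, a mean of 362 ± 25.4 CPM (SD, n = 2), rank 121. It stood 15.8-fold below Mir106b, with a log2 ratio of -3.98 ± 0.13. Against Mir93 the log2 ratio was -4.10 ± 0.09, or 17.2-fold lower. Both ratios were larger than the spread.

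Every member of the miR-106a-363 cluster was below every member of miR-106b-25 in both libraries. The means of Mir363, Mir106a, Mir20b and Mir92-2 were above the median of 80.5 CPM over all detected genes. Those of Mir18b and Mir19b-2 were below it. Mir363, the miR-25 seed member at its 3′ end, had 190 CPM in replicate 1 against 187 CPM in replicate 2, a mean of 188 ± 2.17 CPM (SD, n = 2). Mir106a, with the miR-17 seed, had 191 and 161 CPM, a mean of 176 ± 21.6 CPM. Mir20b, with the same seed, had 129 and 125 CPM, a mean of 127 ± 2.72 CPM. These 3 genes gave most of the cluster's counts.

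Mir92-2, which encodes the same mature miR-92a-3p as Mir92-1, had 90.0 and 82.8 CPM, a mean of 86.4 ± 5.10 CPM (SD, n = 2). Mir18b, a relative of the miR-18a that represses Ccn2 in mouse, had 27.6 CPM in replicate 1 from 509 counts and 30.7 CPM in replicate 2 from 62 counts. Its mean was 29.1 ± 2.24 CPM, and the exact 95% Clopper-Pearson interval in replicate 2 ran from 23.6 to 39.4 CPM. Mir19b-2 was the lowest of the 9, with 68 and 11 counts. Its level was 3.68 CPM in replicate 1, with an interval from 2.86 to 4.67 CPM, and 5.45 CPM in replicate 2, with an interval from 2.72 to 9.76 CPM, a mean of 4.57 ± 1.25 CPM.

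**Figure D1:**
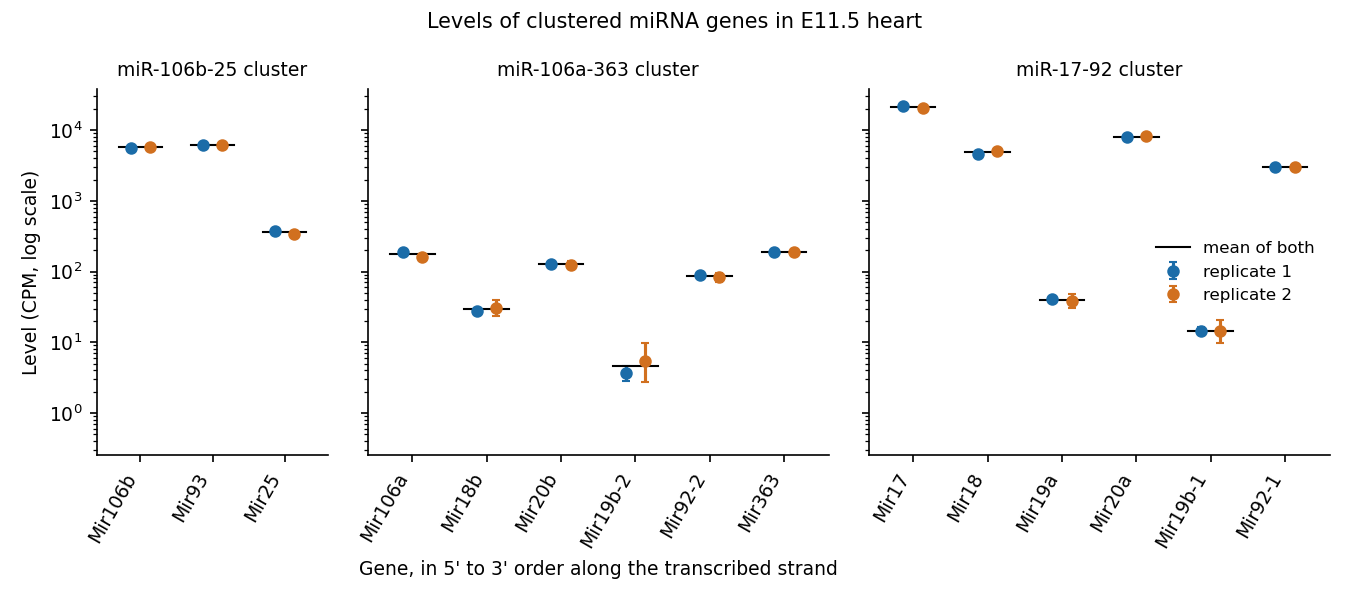
Level of each gene of the miR-106b-25, miR-106a-363 and miR-17-92 clusters in counts scaled to a library total of 1000000 (CPM, log axis), in transcript order. Points are the replicates with exact 95% Clopper-Pearson intervals, which cover counting error only, and black lines are the means of both. Mir93 and Mir106b stand at 6205 and 5722 CPM, and all genes of miR-106a-363 average 188 CPM or less.

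Within miR-106a-363 the levels did not follow the order of the hairpins on the transcript. Mir363, the last hairpin, and Mir106a, the first, did not differ by more than the spread, with a log2 ratio of -0.01 in replicate 1 and 0.22 in replicate 2 (mean 0.10 ± 0.16). The 24 ratios first listed were chosen with earlier results of these data known, and others were added after the levels were seen. Of the 24, the other 23 were larger than the spread. Mir20b was 1.38-fold below Mir106a (log2 ratio -0.47 ± 0.15), and Mir363 was 1.49-fold above Mir20b (0.57 ± 0.01). Mir92-2 was 2.18-fold below Mir363, with a log2 ratio of -1.12 ± 0.07. Against Mir106a, the log2 ratio of Mir18b was -2.58 ± 0.29 and that of Mir19b-2 was -5.25 ± 0.61, which is 38.1-fold lower.

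The order of the 9 levels was Mir93, Mir106b, Mir25, Mir363, Mir106a, Mir20b, Mir92-2, Mir18b and Mir19b-2, and the last 6 of these ranked 163, 167, 189, 207, 254 and 336 among all genes. Neighbours in this order were compared by ratios chosen after the levels were seen. All neighbouring pairs differed by more than the spread except Mir363 and Mir106a. The steps between the others ran from 1.08-fold between Mir93 and Mir106b to 15.8-fold between Mir106b and Mir25. At the low end Mir18b stood 6.36-fold above Mir19b-2, with a log2 ratio of 2.67 ± 0.32.

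The genes most like the members in level were taken as the gene next above and next below each in mean CPM, because 2 libraries give no pattern to correlate. Mir93 lay between Mir151 and Mir431, and Mir431, at 5978 ± 12.9 CPM, also separated it from Mir106b, which lay above Mir30d. Mir25 lay between Mir543 at 366 CPM and Mir676 at 361 CPM. Mir363 lay between Mir31 at 190 CPM and the epithelial Mir200b at 186 CPM. Mir106a lay below Gm26117, whose mean of 182 CPM came from 345 CPM in replicate 1 and 18.3 CPM in replicate 2, and above Mir378d at 174 CPM. Mir20b lay between Mir874 and Mir496a, Mir92-2 between Mir377 and Mir292, Mir18b between Mir1930 and Mirlet7a-1, and Mir19b-2 between Mir7068 and Mir1982.

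Summed over its hairpins, miR-106b-25 took 1.22% of miRNA counts in replicate 1 and 1.23% in replicate 2, a mean of 1.23% ± 0.0067 (SD, n = 2). The miR-106a-363 cluster took 0.0631% and 0.0591%, a mean of 0.0611% ± 0.0028, although it has more hairpins. It was 20.1-fold below miR-106b-25, with a log2 ratio of -4.33 ± 0.07. The exact 95% intervals of the log2 ratio ran from -4.30 to -4.25 in replicate 1 and from -4.47 to -4.30 in replicate 2. Together the 9 genes held 237719 counts in replicate 1 and 26079 in replicate 2, or 1.29% ± 0.0039 of the pool, against 3.73% ± 0.0797 for the 6 genes of miR-17-92. The sums of miR-106a-363 and miR-17-92 leave out reads within the mature arms that these clusters share.

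The clusters differed in seed makeup as well as in level. In miR-106b-25, the miR-17 seed took 96.9% of the cluster's counts in replicate 1 and 97.2% in replicate 2, and Mir25 the remaining 2.95% ± 0.22 (SD, n = 2). In miR-106a-363, the miR-17 seed took 50.7% and 48.3%, and the miR-25 seed 44.4% and 45.6%. Mir18b made up 4.78% ± 0.59 of that cluster and Mir19b-2 made up 0.753% ± 0.239. In miR-17-92 the miR-17 seed took 78.9% ± 1.13, the miR-19 seed 0.145% ± 0.0028 and the miR-25 seed 7.98% ± 0.13, and the miR-18 seed took 12.3% in replicate 1 and 13.7% in replicate 2. Reads within the miR-19b-3p and miR-92a-3p arms that miR-106a-363 and miR-17-92 share are not counted. The makeup of these clusters therefore holds for reads given to a single locus. At Mir92-2, Mir92-1, Mir19b-2 and Mir19b-1 such reads may come from the other arm or reach past the shared run. Whether they carry the seed of their group is not known.

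**Figure D2:**
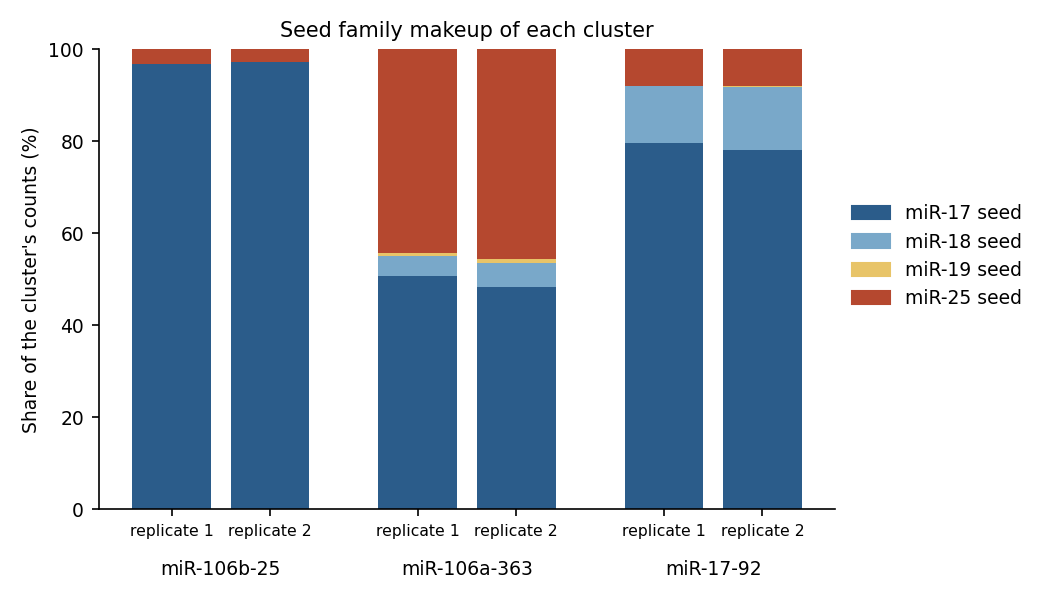
Share of each cluster's counts (%) held by the miR-17, miR-18, miR-19 and miR-25 seed groups, with a bar for each replicate. The miR-25 seed takes 44.4% and 45.6% of miR-106a-363, 3.10% and 2.79% of miR-106b-25, and 7.89% and 8.07% of miR-17-92. Only reads given to a single locus are counted.

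This difference in makeup was expressed as the log2 ratio of miR-25 seed to miR-17 seed counts in each cluster, a ratio chosen after the levels were seen. It was -0.14 ± 0.08 in miR-106a-363 (SD, n = 2), where the interval in replicate 2, from -0.25 to 0.09, included equality. It was -5.04 ± 0.11 in miR-106b-25 and -3.31 ± 0.04 in miR-17-92. The ratio in miR-106a-363 was therefore 30.0-fold that in miR-106b-25 (difference of log2 ratios 4.91 ± 0.19) and 8.99-fold that in miR-17-92 (3.17 ± 0.03), with both libraries on the same side. Mir92-2 shares its mature sequence with Mir92-1. With Mir363 as the only miR-25 seed gene counted, the log2 ratio to the miR-17 seed in miR-106a-363 was -0.68 ± 0.10, which was larger than the spread and nearer to equality than in miR-106b-25. The value for miR-17-92 rests on Mir92-1 alone, whose reads within that shared sequence are likewise not counted. The comparison with miR-17-92 therefore holds for the reads given to a single locus. Whether the reads counted at Mir92-1 and Mir92-2 carry the miR-25 seed is not known.

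Across the genome, the miR-17 seed occurs in 7 genes of the RefSeq table, and 4 of them are members. Together the 7 took 4.16% ± 0.098 of miRNA counts (SD, n = 2). The miR-106b-25 cluster gave 28.7% ± 0.90 of that family's counts, miR-106a-363 gave 0.727% ± 0.041 and miR-17-92 gave 70.6% ± 0.86. The remaining gene, Mir6383 on chromosome X, had 0 counts in both libraries. By gene, Mir93 gave 14.9% ± 0.27 and Mir106b 13.7% ± 0.63 of the family, against 51.2% ± 1.55 for Mir17 and 19.4% ± 0.69 for Mir20a.

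The miR-25 seed also occurs in 7 genes, which together took 0.396% ± 0.0077 of miRNA counts. Mir25 gave 9.14% ± 0.46 of that family, Mir363 gave 4.76% ± 0.038 and Mir92-2 gave 2.18% ± 0.086, which makes 16.1% ± 0.51 for the 3 members. Mir92-1 of miR-17-92 gave 75.1% ± 1.08. The family total leaves out reads within the arm that Mir92-1 and Mir92-2 share, so every share holds for reads given to a single locus. Whether the reads counted at Mir92-1 and Mir92-2 carry the seed is not known. Outside the clusters, Mir32 gave 4.93% ± 0.18 and Mir92b gave 3.82% ± 0.77, and Mir367 had 21 counts in replicate 1 and 5 in replicate 2.

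Counts of the other 2 seeds lay mostly outside the paralog clusters. Mir18b gave 0.598% ± 0.013 of the miR-18 seed family (SD, n = 2), and Mir18 of miR-17-92 gave the rest. Mir19b-2 gave 6.20% of the miR-19 seed family in replicate 1, with an exact interval from 4.85 to 7.80%, and 9.40% in replicate 2, with an interval from 4.79 to 16.2%. Mir19a gave 67.5% ± 2.43 of it. Reads within the arm that Mir19b-2 and Mir19b-1 share are not counted, so the miR-19 shares hold for reads given to a single locus. Whether the reads counted at Mir19b-2 and Mir19b-1 carry the seed is not known. Sharing a seed is not rare: of 1398 seeds in the table, 216 (15.5%) occur in 2 or more genes.

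Each member was then set against a miR-17-92 gene with the same seed, not always at the same place in its cluster. Where the seed has another carrier in miR-17-92, the gap depends on which gene was taken. Every member was lower than its counterpart in both libraries, and all 9 ratios were larger than the spread. The smallest gap was that of Mir93, which was 1.30-fold below Mir20a with a log2 ratio of -0.38 ± 0.03. Mir106b was 3.72-fold below Mir17 (-1.90 ± 0.11), and Mir25 was 8.22-fold below Mir92-1 (-3.04 ± 0.09).

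The gaps were wider for most genes of miR-106a-363. Mir18b was 165-fold below Mir18, with a log2 ratio of -7.37 ± 0.04 (SD, n = 2). Mir106a was 122-fold below Mir17 (-6.92 ± 0.10), though their arms differ at a single base. Mir20b was 63.7-fold below Mir20a (-5.99 ± 0.05). Mir92-2 was 34.4-fold below Mir92-1 (-5.10 ± 0.08), and Mir363 was 15.8-fold below the same gene (-3.98 ± 0.01). Mir19b-2 was 3.18-fold below Mir19b-1, with a log2 ratio of -1.98 in replicate 1 and of -1.36 in replicate 2. That ratio rests on 68 and 11 counts of Mir19b-2 against 269 and 29 of Mir19b-1.

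**Figure D3:**
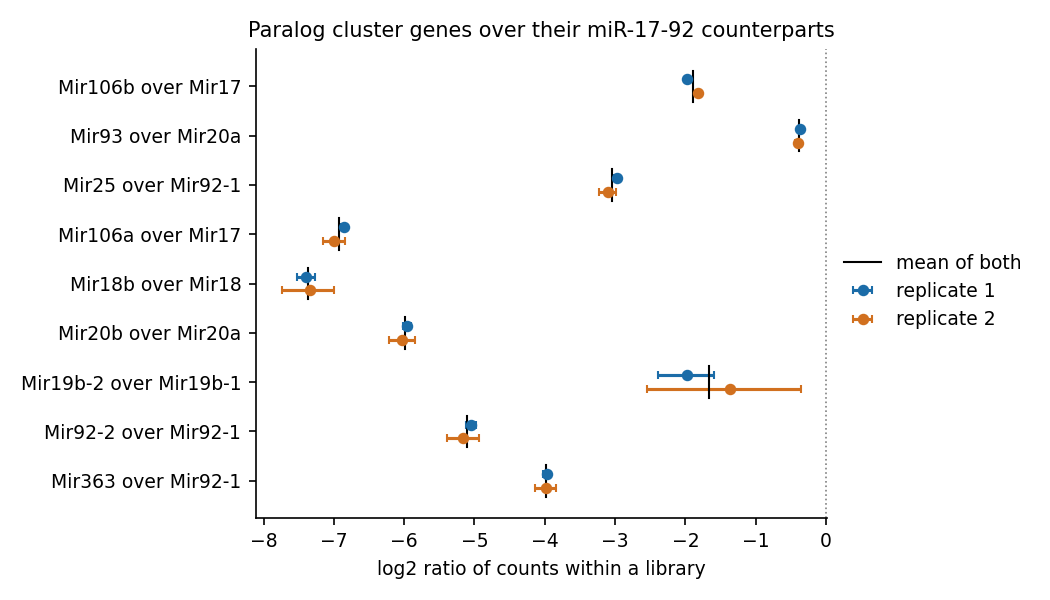
Log2 ratio of counts of each member over its miR-17-92 counterpart within a library. Points are the replicates with exact binomial 95% intervals, black lines are the means and the dotted line marks equality; all 9 means lie below it, from -0.38 for Mir93 over Mir20a to -7.37 for Mir18b over Mir18.

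Summed by seed, the 4 members with the miR-17 seed reached a log2 ratio of -1.27 ± 0.06 to Mir17 and Mir20a together (SD, n = 2), or 2.40-fold lower. The 3 members with the miR-25 seed reached -2.22 ± 0.07 to Mir92-1, or 4.67-fold lower. Both ratios were larger than the spread. Mir93 and Mir106b carried nearly all of the first, and Mir25 and Mir363 most of the second. The second ratio includes Mir92-2 and Mir92-1, whose counted reads may not carry the miR-25 seed.

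For 2 members the counts are especially uncertain, because the mature arm also occurs at a miR-17-92 locus. The hairpins are shown to mark the stretch that cannot be assigned to either locus. They come from RefSeq on GRCm38.p6, with the longest run that a pair shares in capitals.
Mir92-2: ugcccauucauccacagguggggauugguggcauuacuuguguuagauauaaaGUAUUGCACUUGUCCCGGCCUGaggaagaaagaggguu
Mir92-1: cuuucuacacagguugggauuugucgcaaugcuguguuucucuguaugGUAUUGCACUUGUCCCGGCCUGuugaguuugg
Mir19b-2: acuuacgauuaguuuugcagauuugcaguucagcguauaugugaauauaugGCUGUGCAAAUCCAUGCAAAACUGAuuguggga
Mir19b-1: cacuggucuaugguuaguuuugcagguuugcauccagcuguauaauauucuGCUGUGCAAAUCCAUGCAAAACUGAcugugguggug

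Mir92-2 and Mir92-1 share a run of 22 bases, which is the 21-base miR-92a-3p and 1 base before it. Mir19b-2 and Mir19b-1 share 25 bases, which is the 23-base miR-19b-3p and 2 bases before it. In neither pair does the run go past the 3′ end of the arm. A read that stays within such a run matches both loci equally well, and by the layout of the tables such reads stand with the multimapping reads. The counts of Mir92-2, Mir19b-2, Mir92-1 and Mir19b-1 are therefore counts of the reads given to a single locus, and their ratios hold for those reads alone. Those reads may come from the other arm or reach past the run, so whether they carry the seed of the group is not known. Among the other 7 members the longest exact run shared with any other hairpin of the table was 12 to 17 bases, shorter than a mature arm. That search breaks a run at any mismatch, and miR-106a-5p differs from miR-17-5p by U10A alone. Mir106a had 3529 counts in replicate 1 and 324 in replicate 2, against 408557 and 41357 of Mir17. No aligner is named, so whether reads with a mismatch were given to a related locus is not known and was not tested.

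The genes of the miR-19 seed had low counts in both clusters that carry it. Mir19b-2 stood 6.36-fold below Mir18b, its neighbour by level, with a log2 ratio of -2.67 ± 0.32 (SD, n = 2). In miR-17-92, Mir19a, whose arm occurs in 1 hairpin, stood 122-fold below Mir18 (-6.93 ± 0.15), and Mir19b-1 stood 331-fold below it (-8.37 ± 0.08). These ratios were chosen after the levels were seen, and the part of the shared arm in the low counts of Mir19b-2 and Mir19b-1 was not tested.

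The 2 libraries were last compared gene by gene as a check on the members, by an exact binomial test (two-sided, with the totals of the libraries taken as fixed) and Benjamini-Hochberg adjustment over the 419 detected genes. None of the 9 members passed an adjusted p of 0.05 with a fold of at least 2, against 10 of 419 genes (2.39%). At any fold, 3 of the 9 passed the adjusted p, against 123 of 419 (29.4%), which is close to the same share. Mir106b was 1.03-fold higher in replicate 2 (interval 1.01 to 1.05, adjusted p = 0.0069). The ratio of replicate 2 to replicate 1 was 0.906 for Mir25 (interval 0.836 to 0.979, adjusted p = 0.0422) and 0.842 for Mir106a (0.748 to 0.942, adjusted p = 0.0106). These p-values compare 2 libraries of a single group and cover counting error only.

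The other 6 members did not pass. Their ratios ran from 0.922 for Mir92-2 to 1.54 for Mir19b-2, whose interval from 0.706 to 2.82 also held a 2-fold difference. Mir93 had the narrowest interval of these, from 0.974 to 1.01. The median size of the difference was a log2 value of 0.12 over the members, against 0.14 over all detected genes, and 6 of the 9 were lower in replicate 2, against 212 of 419. With edgeR's exact test 0 members passed, each with an adjusted p of 1, and 0 had an unadjusted p under 0.05. Its dispersion came from the same 2 libraries, so that outcome says little about how stable the members are. The libraries differed elsewhere: the liver marker Mir122 had 160 CPM in replicate 2 and 395 CPM in replicate 1, and the 5 epithelial markers summed to 831 CPM in replicate 2 and 1324 CPM in replicate 1. Their part in the differences of Mir25 and Mir106a was not tested.

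**Figure D4:**
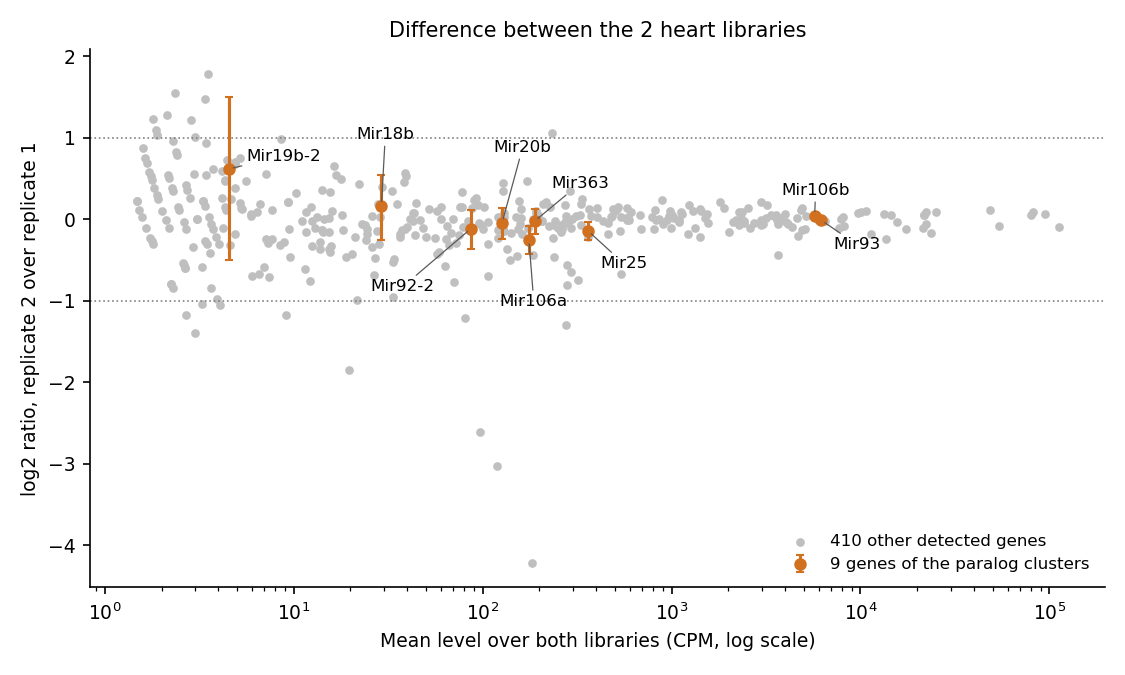
Log2 ratio of replicate 2 over replicate 1 against the mean level (CPM, log axis) for the 419 detected genes. The 9 members are in orange with exact 95% intervals and the dotted lines mark a 2-fold difference; all 9 points lie between those lines, and the interval of Mir19b-2 reaches from 0.706-fold to 2.82-fold.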

How the data were processed

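For each of the 2 heart libraries the authors deposited 1 table of unnormalized counts over miRNA genes. Its build was mm10 and its annotation GENCODE M4, per the file headers of the notes deposited with it. No aligner or counter is named there or in the labels. Columns 2 to 4 carry no names. Judged by layout and sums, column 2 adds up columns 3 and 4, which were read as own-strand and opposite-strand counts. Column 3 was used. The 4 summary entries that name no gene stayed out of library sizes and tests. Unmapped reads were 38.4% of reads in replicate 1 and 27.5% in replicate 2. Multimapping reads were 20.8% and 24.1%, and reads on no gene were 8.77% and 7.04%.

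Gene names and coordinates (1-based) came from GENCODE M21 on GRCm38, which matched 1894 of 1973 gene IDs. Mature and hairpin sequences came from RefSeq on GRCm38.p6, with an entry for all 9 members. CPM, shares with exact 95% Clopper-Pearson intervals, and log2 ratios with a pseudocount of 0.5 were computed with Python 3.11.15 and scipy 1.17.1. Some miRNAs may be ligated or read better than others. If that holds alike for both libraries, neither SD nor interval shows it, so ratios compare counts and not amounts of RNA. Reads carry no molecular identifiers in the tables, so intervals and limits cover counting error only. The libraries were compared with an exact binomial test, and edgeR 4.0.16 (exact test, common dispersion, TMM) and DESeq2 1.42.0 (size factors) served as alternatives. The spread over 419 genes gave a biological coefficient of variation of 17.6% in edgeR. The exact binomial test and the interval of a ratio were checked on simulated counts that held counting error only. The edgeR test and the rule for the spread were not checked in this way.

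The members, gene lists and ratios were chosen with earlier results of these data known. The genes named are the 9 members, the miR-17-92 genes, other genes with the same seeds, the neighbours in level and the cell type markers. Alternatives were counts on both strands, other scalings, detection limits and pseudocounts, cluster sums without genes whose arm recurs, other filters, and each replicate left out.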

Additional observations from a re-analysis of the deposited data

Results flagged for a closer look

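Opposite-strand counts, which no comparison uses, passed 3 counts, the limit set by a count of 0, at 1 member. Mir20b had 4 opposite-strand counts in replicate 1 beside 2378 on its own strand, and 0 in replicate 2. Mir25 had 1 in replicate 1, which is under that limit of 3 counts, and the other 7 members had 0 in both libraries.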

How the results depend on the processing

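No paired analysis was possible because the labels give a single group. All 9 members were also detected at 0.1 CPM, at 3 counts in each library, with both strands and without either replicate, and 8 of 9 at 10 CPM. Over all mapped reads, miR-106b-25 took 0.670% and miR-106a-363 took 0.0333%, since the total is larger by construction. With both strands miR-106b-25 took 1.17%. Without the genes whose arm recurs, miR-106a-363 took 0.0520%. The 24 ratios kept their direction and call under all alternatives run, except Mir363 over Mir106a (0.10), which was past its counting error without replicate 1 (0.22) and turned to -0.01 without replicate 2. Between the libraries, 10 genes and 0 members were called, against 123 genes and 3 members with no fold minimum and 5 genes with edgeR's exact test, and 7 to 12 genes and 0 members otherwise. At any fold, Mir106b no longer passed under TMM or DESeq2 scaling, nor Mir25 with no filter. With replicate 1 thinned to the depth of replicate 2, chosen after seeing the data, no member passed (smallest adjusted p = 0.0732). The cause was not tested for these. Depth limits Mir19b-2 most, at 11 counts in replicate 2.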
